A study of Mus musculus with 6 samples.

Results

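The gene group described here holds 8 genes that make and mature the beta-cell hormones: Ins1, Ins2, Iapp, Pcsk1, Pcsk2, Cpe, Ero1lb and Pam. They were chosen by name, as the rows of the deposited table with these symbols, and make up 8 of its 46959 rows. All 8 were present and passed the filter of at least 1 RPKM in at least 2 libraries, as did 13022 genes in all. RPKM counts a gene's reads for each kilobase of its length and each M reads of the library.

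Polyadenylated RNA was sequenced from islet cells of adult mice, with 2 libraries for each of 3 sorted populations. Double-positive cells, which the labels describe as delta cells that had transdifferentiated, carried both fluorescent labels. Beta cells were sorted as mCherry-positive and delta cells as YFP-positive. All 3 populations came from the same triple transgenic animals, so every group shared the mIns1-H2b-mCherry reporter, which marks nuclei of cells with an active Ins1 promoter, the Sst-cre driver, and the floxed YFP allele that Cre switches on in somatostatin-expressing cells and their descendants. Each library was a pool of 10 to 12 animals of 1 sex, so each group had a male and a female library and single animals cannot be told apart. Islets were kept overnight in 5.5 mM glucose before the sort, and the labels give 10% serum and 0.25% trypsin for every library. Because the mCherry gate reads the Ins1 promoter and the YFP gate reads past Sst expression, the sort itself selects in part for insulin RNA in double-positive and beta cells over delta cells. The 2 libraries of a group differ in sex as well as in animals, and both enter the spread within groups. The p-values rest on that spread pooled over the 3 groups and drawn towards the spread of genes at similar levels. They do not measure the spread of a single group's 2 libraries.

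Depth, worked out from the steps of low values, was 12.5 and 10.9 M reads in the double-positive libraries, 20.5 to 21.6 M in beta and 15.7 to 17.0 M in delta libraries. The summed RPKM of 5 beta markers was 831 and 1076 in double-positive, 1572 and 2006 in beta and 22.51 and 25.02 in delta libraries. That of 4 delta markers was 13497 and 13581 in double-positive, 79.6 and 96.5 in beta and 51759 and 60657 in delta libraries. Sst made up most of the delta sum in every library, and G6pc2 most of the beta sum in double-positive and beta libraries. All 9 markers were above 0 in every library. However, the delta marker Ghsr was at only 0.021 and 0.066 RPKM in beta libraries, where 3 reads on 1 kb make 0.139 and 0.147 RPKM. The delta libraries also held Gcg (glucagon) at 14572 and 15846 RPKM and Ppy (pancreatic polypeptide) at 16735 and 15817 RPKM. The summed RPKM of 6 acinar markers was higher in the male pool of each group, at 1842 against 64.3 in double-positive, 6915 against 266 in beta and 501 against 279 in delta libraries.

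As background, insulin and amylin are made as longer precursors that pass through the endoplasmic reticulum, where disulfide bonds form, and are then cut inside secretory granules. The convertases encoded by Pcsk1 and Pcsk2 cut after pairs of basic residues. Carboxypeptidase E, the product of Cpe, trims the basic residues left behind, and the enzyme encoded by Pam converts a terminal glycine into an amide, a step that amylin needs and insulin does not. Ero1lb, named Ero1b in newer annotation, encodes an oxidase of the endoplasmic reticulum that drives disulfide formation and is abundant in the endocrine pancreas. Delta cells use much of the same machinery for somatostatin, whereas Ins1 and Ins2 are the defining hormones of beta cells.

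Double-positive cells had lower insulin RNA than beta cells and higher insulin, Pcsk1 and Ero1lb RNA than delta cells. Amylin RNA was also lower than in beta cells, but that call was easily lost, as given below. Against beta cells, 0 of the 8 genes were higher and 3 lower at an adjusted p under 0.05 (limma on log2(RPKM + 1), Benjamini-Hochberg over all genes tested), and with no adjustment 0 were higher and 4 lower. Over all genes tested, 51.0% were called in this comparison, 42.5% higher and 8.46% lower. The median log2 fold change was -0.33 over the 8 genes and 0.32 over all genes tested. The 2 libraries of the 2 groups did not overlap for 6 of the 8 genes, and overlapped for Pcsk1 and Pcsk2. Against delta cells, 4 genes were higher (Ins1, Ins2, Pcsk1 and Ero1lb) and 1 lower (Pam), beside 12.7% of all genes tested (5.53% higher and 7.20% lower). Their median was 1.71 and that of all genes tested -0.03, and no gene of the 8 overlapped. In beta against delta cells, 6 genes were higher and 1 (Pam) lower, beside 57.9% of all genes tested (11.7% higher and 46.3% lower), with medians of 2.01 and -0.36, and again none overlapped. The comparisons share groups, so their counts are not independent. The shares of all genes tested that did not overlap, or that passed with no adjustment, were not worked out. The counts of overlap and the counts with no adjustment therefore describe these 8 genes only.

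**Figure D1:**
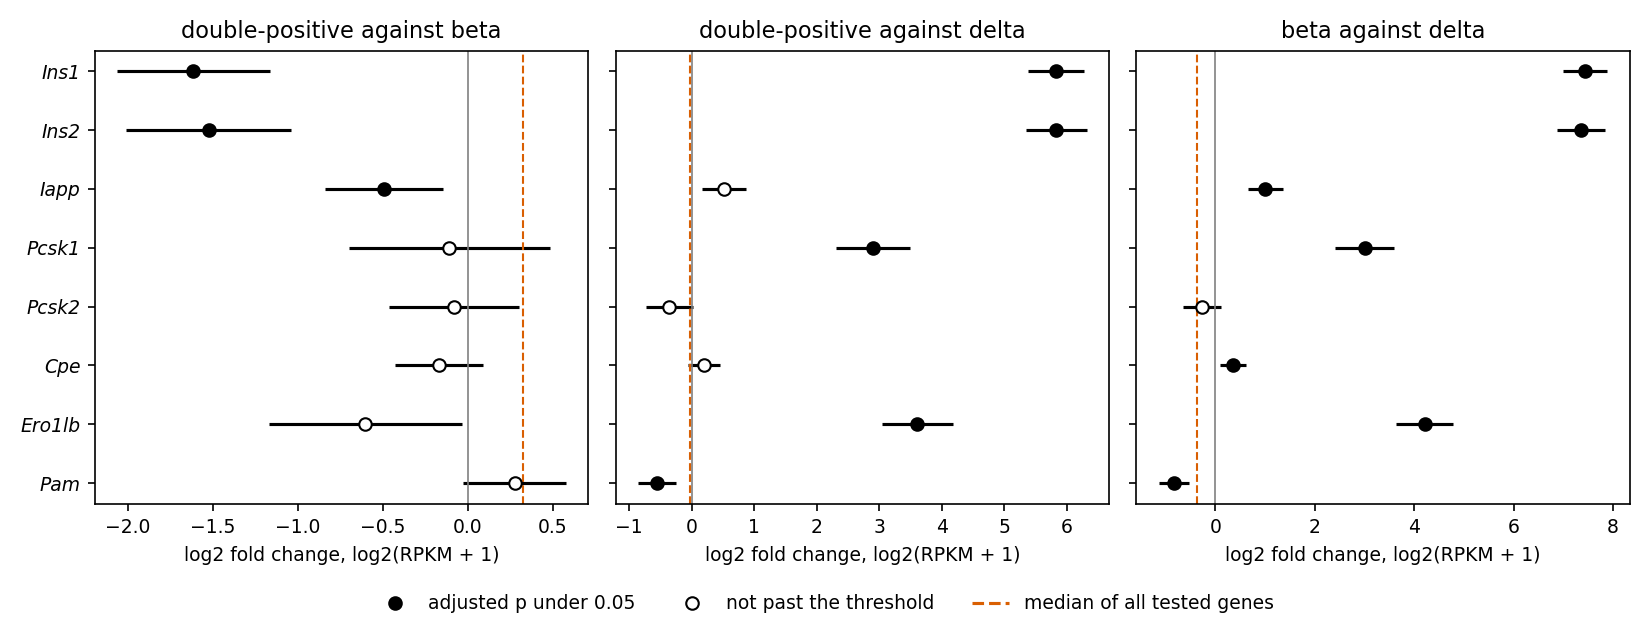
Log2 fold change on the log2(RPKM + 1) scale (x axis) of each of the 8 genes (rows) in the 3 comparisons, with 95% confidence intervals; filled points passed an adjusted p of 0.05, and the dashed line is the median of all genes tested. The insulin genes lie near -1.6 and -1.5 in double-positive against beta cells and near 5.8 in double-positive against delta cells, while Pcsk1 lies at -0.11 and 2.90.

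Insulin transcripts were scarcer relative to the rest of the library in double-positive than in beta cells, and far more abundant than in delta cells. Mice have 2 insulin genes, Ins1 (ENSMUSG00000035804.5, chromosome 19, 52264297 to 52265476, plus strand, GENCODE M21 on GRCm38) and Ins2 (ENSMUSG00000000215.11, chromosome 7, 142678656 to 142743381, minus strand). Ins1 was at 17382 and 20316 RPKM in the male and female double-positive libraries, at 65332 and 50554 RPKM in beta and at 294 and 373 RPKM in delta libraries. The 3 groups did not overlap, and the female library was the higher one in double-positive and delta cells and the lower one in beta cells. Ins2 was at 68229 and 73020 RPKM in double-positive, 243303 and 169339 RPKM in beta and 1125 and 1369 RPKM in delta libraries, with the same order of groups and no overlap. The coding sequences of both genes are closely alike, and reads that match both may have been split or dropped in counting, so the share of each is less certain than their sum.

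Ins1 was lower in double-positive than in beta cells (log2 fold change -1.61, SE 0.19, adjusted p = 9.25e-04, limma), and so was Ins2 (-1.52, SE 0.20, adjusted p = 0.0015). Means in double-positive cells, at 18849 ± 2075 RPKM for Ins1 and 70625 ± 3387 RPKM for Ins2 (SD, n = 2), were 32.5% and 34.2% of the beta means. Those beta means were 57944 ± 10450 and 206321 ± 52300 RPKM. The difference was larger in the male than in the female pool for both genes: -1.91 and -1.32 for Ins1, and -1.83 and -1.21 for Ins2. Acinar markers, given above, were also higher in the male pools, with their highest level in the male beta library; their part in this was not tested. Without any filter on low values the estimated spread of these genes grew, the SE of Ins2 being 1.54, and neither insulin gene was called against beta cells (adjusted p = 0.13 for Ins1 and 0.53 for Ins2).

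Against delta cells, Ins1 was 5.82 log2 units higher in double-positive cells (SE 0.19, adjusted p = 5.64e-05, limma) and Ins2 5.83 (SE 0.20, adjusted p = 6.38e-05). On this scale Ins1 was 56.6-fold and Ins2 56.8-fold higher, and in beta against delta cells the folds were 173 and 163. Without a filter on low values the call of Ins2 against delta cells was lost (adjusted p = 0.13). Insulin reads in delta libraries were not at background counts: about 5294 and 6216 reads lay behind the Ins1 values, as estimated from length and depth. Whether these came from the delta cells or from other cells in the sort was not tested. In bulk libraries, fewer cells with a transcript and less of it per cell cannot be told apart, and this holds for every level below.

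Of all RPKM in a library, both insulin genes together held 22.4% and 23.8% in double-positive, 52.5% and 45.2% in beta and 0.385% and 0.458% in delta libraries. All 8 genes together held 30.8% and 32.0% in double-positive, 60.7% and 53.5% in beta and 6.55% and 6.45% in delta libraries. Ins2 was the most abundant transcript of the double-positive and beta libraries, and ranked 15 in both delta libraries. RPKM values are relative to the library, so the scaling bears on every comparison with beta cells. Dividing by median-of-ratios factors, which assume that the typical gene is equal between groups, changed the beta values most (factors of 0.788 and 0.875, against 1.09 to 1.13 in the other libraries). With that scaling, 6 of the 8 genes were lower in double-positive than in beta cells and 0 higher, and all genes tested split into 3624 higher and 3395 lower instead of 5540 and 1102. In beta against delta cells the split became 3623 higher and 3865 lower, in place of 1521 and 6025. Scaling to an equal sum without 7 islet hormones, insulin and amylin included, moved these splits far less, with 5020 higher and 1331 lower in double-positive against beta cells and 1820 higher and 5326 lower in beta against delta cells; its factors were 0.954 to 1.03. The median over all genes in double-positive against beta cells was then 0.27, against 0.32.

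The ratio of Ins2 to Ins1 within a library does not depend on scaling. It was 3.93 and 3.59 in double-positive, 3.72 and 3.35 in beta and 3.83 and 3.67 in delta libraries. The 3 groups overlapped, and in each the male pool had the higher ratio. Exact 2-sided permutation tests of 2 against 2 libraries, which cannot give a p below 0.333, gave p = 0.667 for double-positive against beta cells and p = 1 for double-positive against delta cells.

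Iapp (ENSMUSG00000041681.2, chromosome 6, 142298423 to 142303961, plus strand) encodes amylin, the peptide that beta cells release with insulin. Its level differed far less between the 3 populations than that of insulin. It ranked 2 in both double-positive libraries, 3 in both beta libraries, and 2 and 3 in the delta libraries. It was at 29434 and 29440 RPKM in double-positive, 45873 and 37407 RPKM in beta and 20630 and 20530 RPKM in delta libraries. Double-positive cells lay between beta and delta cells with no overlap, and the pools of double-positive and of delta cells were nearly equal. Iapp was lower in double-positive than in beta cells (log2 fold change -0.49, SE 0.14, adjusted p = 0.028, limma). This call was lost without either double-positive library (adjusted p = 0.15 without the male and 0.16 without the female), without the male beta library (-0.35, adjusted p = 0.15), without the male or the female delta library (0.057 and 0.073), and without a filter (0.89). Against delta cells the log2 fold change of 0.52 (SE 0.14) did not pass the threshold (adjusted p = 0.067), except when libraries were scaled to an equal sum without the islet hormones (0.55, adjusted p = 0.044). In beta against delta cells Iapp was higher by 1.01 (SE 0.14, adjusted p = 0.0014), a call lost without a filter (adjusted p = 0.70).

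The ratio of amylin to insulin RNA also separated the groups. Iapp relative to the sum of Ins1 and Ins2 was 0.344 and 0.315 in double-positive, 0.149 and 0.170 in beta and 14.5 and 11.8 in delta libraries. The groups did not overlap, and p = 0.333 in each exact permutation test was the smallest that 2 against 2 libraries allow. The mean ratio in double-positive cells was 1.05 log2 units above that of beta cells and 5.31 log2 units below that of delta cells.

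**Figure D2:**
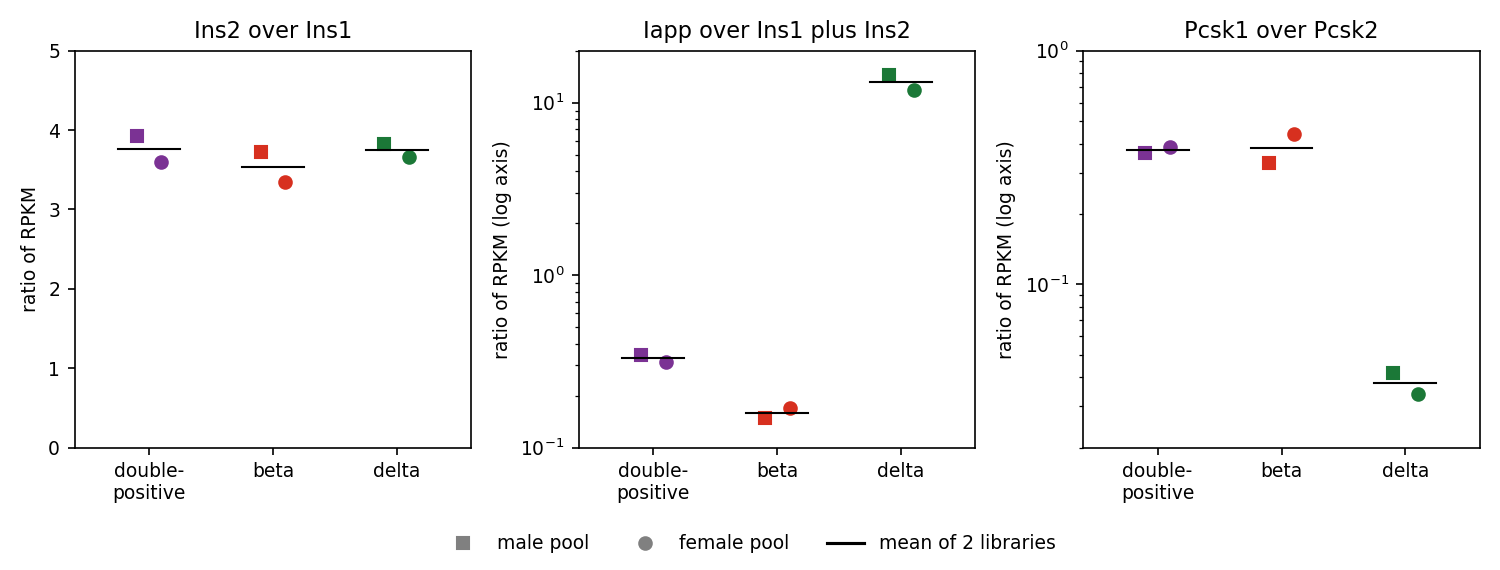
Ratios of RPKM within each library (y axis; log axes for the amylin and convertase ratios) in double-positive, beta and delta cells, with squares for male pools, circles for female pools and lines for means of 2 libraries. Ins2 over Ins1 overlaps in all groups, Iapp over both insulin genes is 0.315 to 0.344 in double-positive and 0.149 to 0.170 in beta cells, and Pcsk1 over Pcsk2 overlaps between double-positive and beta cells and is at most 0.0418 in delta cells.

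The promoters of Ins1 and Iapp are shown because both genes carry the letters that islet transcription factors are known to read: TAAT is the core read by homeodomain proteins such as Pdx1, and CATCTG is an E-box of the kind read by Neurod1 with its partners. Each is the 250 bases before the RefSeq start on the plus strand of GRCm38.p6, Ins1 at chr19:52264047-52264296 and Iapp at chr6:142298175-142298424, and capitals mark matches to TAAT (or ATTA) and CATCTG on either strand. RefSeq windows were matched for 6 of the 8 genes; Ins2 and Cpe had none here.
Ins1 promoter: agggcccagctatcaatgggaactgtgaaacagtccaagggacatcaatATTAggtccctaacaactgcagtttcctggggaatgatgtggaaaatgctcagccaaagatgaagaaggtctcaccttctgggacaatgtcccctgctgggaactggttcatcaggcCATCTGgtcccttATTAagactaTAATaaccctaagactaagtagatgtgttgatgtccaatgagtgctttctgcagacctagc
Iapp promoter: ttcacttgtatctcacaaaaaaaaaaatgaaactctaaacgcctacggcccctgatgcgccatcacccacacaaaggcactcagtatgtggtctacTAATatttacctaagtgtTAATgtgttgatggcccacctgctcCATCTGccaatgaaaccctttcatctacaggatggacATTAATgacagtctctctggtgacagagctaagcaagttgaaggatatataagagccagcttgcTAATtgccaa

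The Ins1 window held 3 matches to TAAT and 1 to CATCTG, and the Iapp window held 5 and 1, of which 2 TAAT matches overlap as ATTAAT. Among 32851 promoter windows of the same length, 54.9% held TAAT and 14.4% held CATCTG, so the first is common by its length alone. The windows of Pcsk2, Ero1lb and Pam held neither. These matches describe letters and not binding.

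The convertases differed most from each other between delta cells and the other populations. Pcsk1 (ENSMUSG00000021587.5, chromosome 13, 75089826 to 75134861, plus strand), which makes the first cuts in proinsulin, was at 152.8 and 187.7 RPKM in double-positive, 139.5 and 239.1 RPKM in beta and 22.8 and 20.9 RPKM in delta libraries. The double-positive libraries lay between the beta libraries, and both groups lay well above delta cells. Pcsk1 was higher in double-positive than in delta cells by 2.90 (SE 0.25, adjusted p = 0.0013, limma), 7.46-fold on this scale, and in beta than in delta cells by 3.01 (SE 0.25, adjusted p = 1.49e-04).

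Against beta cells the log2 fold change of Pcsk1 was -0.11 (SE 0.25, 95% confidence interval -0.70 to 0.48, adjusted p = 0.73), an interval that leaves room for either direction. The male pool gave 0.13 and the female pool -0.35. The value was 0.04 without the male double-positive library and 0.28 without the female beta library. Without the male beta library it was -0.50 and passed the threshold (adjusted p = 0.047), and with median-of-ratios scaling it was -0.51 (adjusted p = 0.091).

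Pcsk2 (ENSMUSG00000027419.9, chromosome 2, 143546156 to 143816285, plus strand), the convertase that completes proinsulin cutting and also serves other islet hormones, was at similar levels in all groups. It was at 419.9 and 485.4 RPKM in double-positive, 420.1 and 545.6 RPKM in beta and 546.2 and 612.6 RPKM in delta libraries. In every group the female pool was higher, and the double-positive and beta libraries overlapped, while the lowest delta value lay just above the highest beta value. The log2 fold changes were -0.08 (95% confidence interval -0.47 to 0.30, adjusted p = 0.68) in double-positive against beta cells, -0.36 (-0.74 to 0.03, adjusted p = 0.22) in double-positive against delta cells and -0.27 (-0.65 to 0.11, adjusted p = 0.18, limma) in beta against delta cells. With median-of-ratios scaling Pcsk2 was lower in double-positive than in beta cells (-0.49, adjusted p = 0.037), and the sign in beta against delta cells turned to 0.16. Without the female beta library Pcsk2 was 0.10 in double-positive against beta cells and was called lower in beta against delta cells (-0.46, adjusted p = 0.037), and without the male double-positive library it was 0.02 against beta cells. Pcsk2 shares 260 exon bases with Pcsk2os1 and 99 with Pcsk2os2 on the opposite strand, and the library kit does not mark strand.

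Within a library, Pcsk1 relative to Pcsk2 was 0.364 and 0.387 in double-positive, 0.332 and 0.438 in beta and 0.0418 and 0.0341 in delta libraries. Both double-positive values lay between the beta values, and neither group overlapped delta cells. The exact 2-sided permutation p was 1 for double-positive against beta cells and 0.333 for double-positive against delta cells, the smallest possible. Per length, delta cells thus held Pcsk2 RNA at 23.9 and 29.4 times the level of Pcsk1 RNA, against 2.75 and 2.59 times in double-positive cells.

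The promoters of the convertases are shown because only Pcsk1 separated delta cells from the other groups in the test; both are the 250 bases before the RefSeq start on the plus strand of GRCm38.p6, Pcsk1 at chr13:75089607-75089856 and Pcsk2 at chr2:143545883-143546132. Capitals mark the same motifs and also TGACGTCA, the letters of a cyclic AMP response element. The end of the Pcsk1 window lies inside the GENCODE gene model, which starts further upstream.
Pcsk1 promoter: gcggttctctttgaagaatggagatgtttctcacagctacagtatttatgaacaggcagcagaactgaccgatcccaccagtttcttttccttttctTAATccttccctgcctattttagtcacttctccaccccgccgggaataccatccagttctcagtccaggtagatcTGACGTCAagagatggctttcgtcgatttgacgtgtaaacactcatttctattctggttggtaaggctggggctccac
Pcsk2 promoter: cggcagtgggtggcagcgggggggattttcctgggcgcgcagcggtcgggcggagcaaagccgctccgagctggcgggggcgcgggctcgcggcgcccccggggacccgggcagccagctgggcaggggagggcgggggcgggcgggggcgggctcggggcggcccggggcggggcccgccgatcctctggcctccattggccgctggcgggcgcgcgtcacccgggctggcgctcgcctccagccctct

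The Pcsk1 window held 1 match to TGACGTCA, which 1.55% of all windows held, and 1 to TAAT. The Pcsk2 window held none of the 3 motifs, which says only that these letters are not in it.

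Cpe (ENSMUSG00000037852.8, chromosome 8, 64592542 to 64693054, minus strand), the carboxypeptidase that follows both convertases, was high and nearly level in all 3 populations. It was at 1635 and 1538 RPKM in double-positive, 1812 and 1762 RPKM in beta and 1354 and 1424 RPKM in delta libraries. The 3 groups kept the order beta, double-positive, delta with no overlap, and it ranked between 10 and 15 in every library. Double-positive cells differed by -0.17 from beta cells (95% confidence interval -0.43 to 0.09, adjusted p = 0.22) and by 0.19 from delta cells (-0.07 to 0.45, adjusted p = 0.32, limma). Cpe was higher in beta than in delta cells by 0.36 (SE 0.11, adjusted p = 0.026). That call was lost without the male or female double-positive library (adjusted p = 0.055 and 0.062), the male beta library (0.052), the male or female delta library (0.16 and 0.11), or a filter (0.32). With median-of-ratios scaling Cpe was called lower in double-positive than in beta cells (-0.58, adjusted p = 0.016).

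Ero1lb (ENSMUSG00000057069.7, chromosome 13, 12565874 to 12611396, plus strand) was, like Pcsk1, far lower in delta cells than in the other populations, with a wider gap. It was at 149.3 and 202.3 RPKM in double-positive, 210.0 and 332.7 RPKM in beta and 13.0 and 13.7 RPKM in delta libraries. The female pools of double-positive and beta cells were higher than the male pools, and the groups did not overlap, although the highest double-positive value lay just under the lowest beta value. Ero1lb was higher in double-positive than in delta cells by 3.61 (SE 0.24, adjusted p = 5.85e-04, limma), 12.2-fold on this scale, and in beta than in delta cells by 4.21 (SE 0.24, adjusted p = 3.50e-05). Against beta cells the log2 fold change of -0.60 (SE 0.24) did not pass the threshold (adjusted p = 0.072), but did when the fit blocked on pool (adjusted p = 0.016), with median-of-ratios scaling (-1.01, adjusted p = 0.0097) and without the male beta library (-0.93, adjusted p = 0.017). Without the female beta library it was -0.27. The female pool gave -0.72 and the male pool -0.49. Its relative Ero1l, the broadly expressed oxidase of the same family, was at 71.2 and 27.5 RPKM in double-positive, 54.2 and 36.8 RPKM in beta and 27.9 and 17.1 RPKM in delta libraries, with the male pool higher in each group. With the pool as a block Ero1l was called higher than in delta cells both in double-positive (0.99, adjusted p = 0.018) and in beta cells (adjusted p = 0.0044), but not without it (0.22 and 0.095). Ero1lb was therefore above Ero1l, per length, in each double-positive and beta library and below it in each delta library.

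Pam (ENSMUSG00000026335.16, chromosome 1, 97795114 to 98095646, minus strand), the amidating enzyme, ran the other way and was highest in delta cells. It was at 134.9 and 110.2 RPKM in double-positive, 98.3 and 103.1 RPKM in beta and 181.9 and 178.3 RPKM in delta libraries. Double-positive cells lay between the others with no overlap, though the female double-positive library came close to beta cells. Pam was lower in double-positive than in delta cells by -0.56 (SE 0.13, adjusted p = 0.033, limma), and in beta than in delta cells by -0.83 (SE 0.13, adjusted p = 0.0017). The first call was lost without the female double-positive library (-0.41, adjusted p = 0.17), the male or the female delta library (adjusted p = 0.17 and 0.19), or a filter (0.084). Against beta cells the log2 fold change was 0.27 (95% confidence interval -0.03 to 0.57, adjusted p = 0.11), and with median-of-ratios scaling its sign turned to -0.13 (adjusted p = 0.40). Pam shares 188 exon bases with B230216N24Rik on the same strand, so a part of its reads could have been counted differently.

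**Figure D3:**
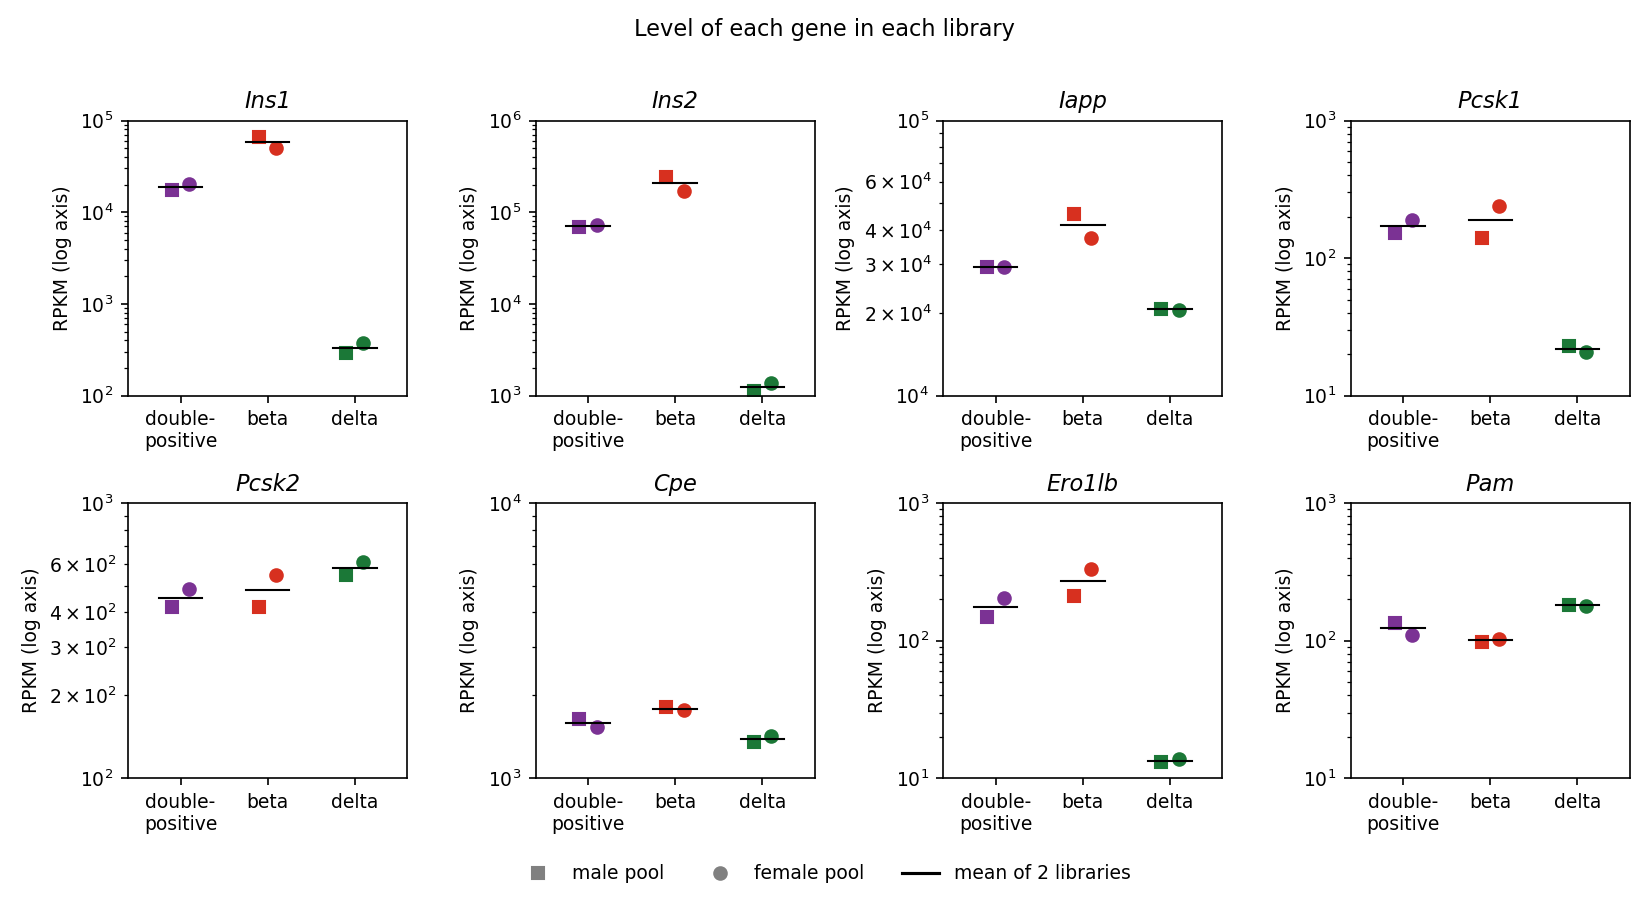
RPKM (log axis) of each of the 8 genes in double-positive, beta and delta libraries; squares are male pools, circles female pools, and lines the means of 2 libraries. Insulin levels of double-positive cells lie between those of beta and delta cells, Pcsk1 and Ero1lb are near 13 to 23 RPKM only in delta cells, Cpe and Pcsk2 span less than 2-fold, and Pam is highest in delta cells at 178.3 to 181.9 RPKM.

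Where double-positive cells fell between delta cells (0%) and beta cells (100%) differed by gene and by scale. On group means of RPKM they stood at 32.1% for Ins1, 33.8% for Ins2, 42.1% for Iapp and 49.6% for Cpe. Further along were Ero1lb at 63.0%, Pam at 72.5% and Pcsk1 at 88.6%. On the log2(RPKM + 1) scale the same cells stood at 78.3% and 79.3% for the insulin genes, 51.2% for Iapp, 52.6% for Cpe, 67.1% for Pam, 85.7% for Ero1lb and 96.4% for Pcsk1. On both scales Pcsk1 stood nearest to beta cells, whereas the insulin genes were the farthest on RPKM and among the nearer ones on log2. On the log2 scale the male and female pools gave 75.5% and 81.4% for Ins1, and 105% and 89.9% for Pcsk1. They gave 44.5% and 60.1% for Iapp, 64.7% and 36.2% for Cpe, and 48.7% and 87.8% for Pam. The places of Pcsk1, Iapp, Cpe and Pam are therefore known less well. For Cpe the call between beta and delta cells was also easily lost, as given above. Pcsk2 was left out, since beta and delta cells did not pass the test for it. These positions are descriptions of means over 2 libraries and carry no test.

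**Figure D4:**
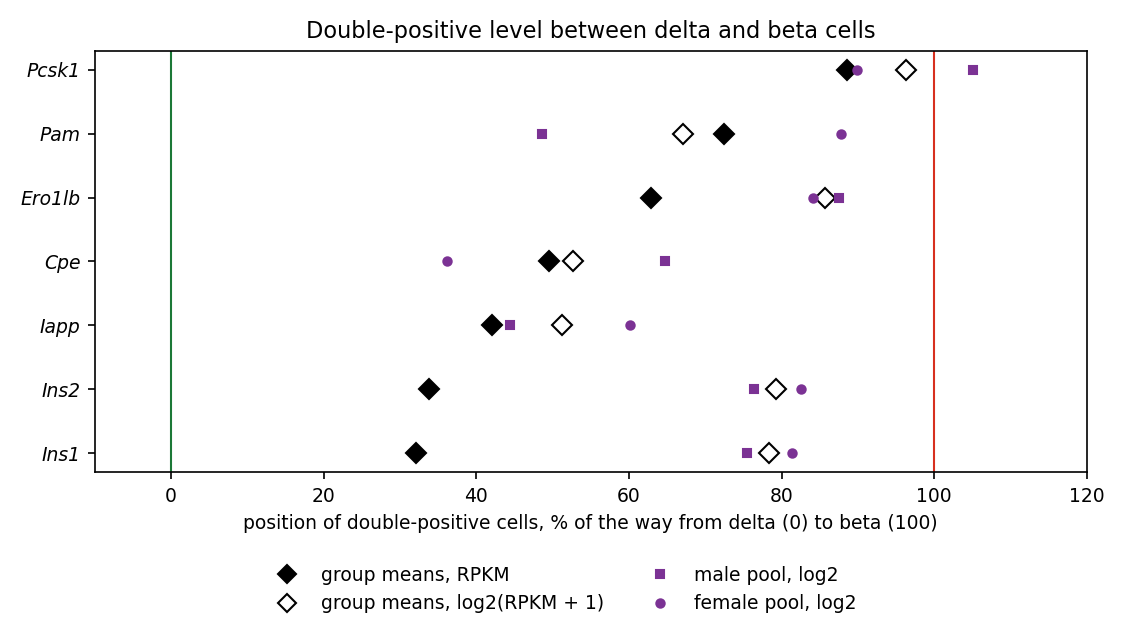
Position of double-positive cells as a percentage of the way from delta (0) to beta (100) cells for 7 genes, from group means of RPKM (filled diamonds), from group means of log2(RPKM + 1) (open diamonds) and from each pool on the log2 scale (square, male; circle, female). Ins1 is at 32.1% on RPKM and 78.3% on log2, and Pcsk1 at 88.6% and 96.4%.

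The genes with the most similar profiles were sought over the 6 libraries as the smallest root mean square difference of centred log2(RPKM + 1) values among 11469 named genes. Ins1 and Ins2 were each other's nearest gene (0.072). Ucn3, a peptide of mature beta cells, came next at 0.35 from Ins1 and 0.37 from Ins2, and G6pc2, a glucose-6-phosphatase subunit of islets, followed at 0.54 and 0.52. Pcsk1 was nearest to Gpr158, a G protein-coupled receptor (0.11), Galr1, a galanin receptor (0.16), and Ddc, the aromatic amino acid decarboxylase (0.22). Ero1lb was nearest to Msln, which encodes mesothelin (0.15), Ffar1, a fatty acid receptor (0.15), and the beta-cell transcription factor Nkx6-1 (0.18). Mean levels of Ffar1 were 29.8 RPKM in double-positive, 47.1 in beta and 1.31 in delta cells. The nearest genes of the others were Krt7, Tmem189 and Tor3a for Iapp, Mapk8ip2, Ldoc1l and Mgat2 for Pcsk2, Osbpl2, Psmc1 and Sptlc1 for Cpe, and Rassf3, Epha2 and Arf6 for Pam. The 6 libraries in 3 groups give few independent points, so these are descriptions.

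Other genes of the pathway were read from lists set by function, whose counts at an adjusted p under 0.05 stand beside the shares of all genes tested given above. List counts with no adjustment have no such share beside them, because it was not worked out. List counts also changed with the library left out, and so did the counts over all genes tested, given further below. Of 23 other processing enzymes and their partners, 18 passed the filter, and Pcsk5, Cpz, Cpxm1, Cpxm2 and Aebp1 were below it. In double-positive against beta cells 4 were higher and 1 lower, with a median of 0.08, and 1 higher and 8 lower with median-of-ratios scaling. The list median was 0.17 without the male double-positive library and 0.19 without the female beta library, beside 0.31 and 0.39 over all genes tested. Pcsk4, a convertase known mainly from germ cells, was at 12.4 and 13.9 RPKM in double-positive, 3.34 and 2.41 RPKM in beta and 4.52 and 3.99 RPKM in delta libraries. It was higher in double-positive cells than in both others with no overlap, by 1.87 against beta cells (SE 0.15, adjusted p = 3.04e-04, limma) and by 1.43 against delta cells (adjusted p = 0.0026). The lysosomal protease Ctsb was lower than in beta cells (-0.79, adjusted p = 0.0019). Cpd, a carboxypeptidase of the Golgi, and Ide, the insulin-degrading enzyme, were higher at 0.75 and 0.63, but not with median-of-ratios scaling (adjusted p = 0.16 and 0.10). The call of Ide was also lost without the male double-positive library (adjusted p = 0.062), and that of Cpd without either double-positive library (0.13 and 0.10) or either delta library (0.054 each).

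Against delta cells 2 of the 18 enzymes were higher and 0 lower (3 and 3 with no adjustment), with a median of -0.06. These were Pcsk4 and Qpct, the glutaminyl cyclase, at 0.96, whose adjusted p ran between 0.053 and 0.077 without either double-positive or either delta library. With the pool as a block, the counts were 5 higher and 3 lower against beta cells and 3 higher and 2 lower against delta cells. Over all 13022 genes tested, that fit gave 5748 higher and 1274 lower against beta cells, and 847 higher and 1078 lower against delta cells. The partners of the convertases did not pass the test. Pcsk1n (proSAAS), which binds the Pcsk1 product, was at 103.1 and 239.4 RPKM in double-positive, 327.4 and 289.2 RPKM in beta and 330.1 and 438.7 RPKM in delta libraries. Both double-positive libraries were the lowest, but the gap between the pools was wide, and the adjusted p was 0.064 against beta and 0.073 against delta cells. With the pool as a block these became 0.027 and 0.029, both past the threshold. Scg5, the chaperone 7B2 of the Pcsk2 product, was at 581.2 and 567.9 RPKM in double-positive, 606.3 and 545.9 RPKM in beta and 637.6 and 756.6 RPKM in delta libraries.

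All 20 genes of protein folding and disulfide formation were tested. In double-positive against beta cells 4 were higher and 4 lower (median 0.09), and with median-of-ratios scaling 1 was higher and 7 lower. The counts changed with the library left out, as they did over all genes tested. The list median was 0.15 without the male double-positive library, 0.16 without the female one and 0.30 without the female beta library. Over all genes tested the medians of these fits were 0.31, 0.34 and 0.39. The chaperone Hsp90b1 was higher, at 368.3 and 327.4 RPKM in double-positive, 164.0 and 182.2 RPKM in beta and 503.9 and 478.8 RPKM in delta libraries (log2 fold change 1.0, SE 0.12, adjusted p = 9.43e-04, limma). Canx, a lectin chaperone, was higher by 0.68 and Prdx4, a peroxiredoxin of the endoplasmic reticulum, by 0.70, but neither with median-of-ratios scaling (adjusted p = 0.076 and 0.18), and Prdx4 not without the male double-positive library (0.081). Sdf2l1, a cofactor of chaperones in the endoplasmic reticulum, was lower by -0.71, a call lost without the male double-positive (adjusted p = 0.13) or the female beta library (0.064). P4hb, the protein disulfide isomerase, was lower by -0.41, and its adjusted p was 0.075 and 0.098 without either double-positive library and 0.051 and 0.053 without either delta library.

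Against delta cells 0 of these 20 genes were higher and 4 lower, with a median of -0.38 beside -0.03 over all genes tested. With no adjustment 0 were higher and 11 lower, a count for which the share of all genes tested was not worked out. Those called were Prdx4 (-1.04), the chaperone Hsp90b1 (-0.50) and the disulfide isomerases Pdia3 (-0.58) and Txndc5 (-0.71). The count depends on single libraries: 0 were called without the female double-positive, the male delta or the female delta library, 1 without the male double-positive library, and 10 without either beta library. It was 1 higher and 6 lower with the pool as a block, beside 847 higher and 1078 lower of all 13022 genes tested. In beta against delta cells 1 was higher and 9 lower, which became 5 and 5 with median-of-ratios scaling.

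Of 12 genes of granule cargo and transport, 1 was higher and 3 lower in double-positive than in beta cells (median -0.06), with 1 and 7 by median-of-ratios scaling. The list median was -0.003 without the male double-positive library and 0.06 without the female beta library, beside 0.31 and 0.39 over all genes tested. Slc30a8, the zinc transporter that loads insulin granules, was at 159.9 and 195.0 RPKM in double-positive, 159.6 and 207.4 RPKM in beta and 43.2 and 41.5 RPKM in delta libraries. Both double-positive values lay between the beta values, and Slc30a8 was higher in double-positive than in delta cells by 2.03 (SE 0.16, adjusted p = 9.82e-04, limma). Vgf, a granin-like prohormone, was at 48.7 and 63.1 RPKM in double-positive, 138.9 and 144.8 RPKM in beta and 38.2 and 42.6 RPKM in delta libraries, lower than in beta cells by -1.34 (adjusted p = 7.32e-04). Chgb, chromogranin B, was higher than in beta cells by 0.87 (adjusted p = 0.0039). Sytl4, a granule tethering protein, was higher than in delta cells by 4.85 (adjusted p = 1.31e-04) and lower than in beta cells by -0.92, the second call being lost without the male double-positive library (adjusted p = 0.068). Against delta cells 4 of the 12 were higher and 0 lower (5 and 1 with no adjustment), a count that fell to 2 without the female double-positive library or either delta library.

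Of 12 regulators of the insulin genes, 4 were higher and 3 lower in double-positive than in beta cells (median 0.11), and 4 were higher and 2 lower than in delta cells (median 0.23). Against beta cells the counts were 4 and 6 with median-of-ratios scaling (median -0.26). Without the female beta library the list median was 0.32, beside 0.39 over all genes tested. Mafa, an activator of insulin transcription, was at 20.6 and 81.5 RPKM in double-positive, 139.6 and 236.1 RPKM in beta and 1.04 and 1.71 RPKM in delta libraries. The pools of double-positive cells differed widely but did not overlap the other groups, and Mafa was higher than in delta cells by 4.17 (SE 0.59, adjusted p = 0.0066, limma). It was lower than in beta cells by -2.11 (adjusted p = 0.023), which was lost without the male double-positive (-1.15, adjusted p = 0.059), the male beta (0.052) or the female beta library (0.11). Nkx6-1 was higher than in delta cells by 3.22. Its lower level than in beta cells (-0.67, adjusted p = 0.047) was lost without the male double-positive (adjusted p = 0.25), the female beta (0.19) or either delta library (0.077 each). Without the male double-positive library 0 of the 12 regulators were called lower than in beta cells. Against delta cells, 2 were called higher and 0 lower without the female double-positive or the female delta library. Isl1, a LIM homeodomain factor of all islet endocrine cells, was at 79.0 and 78.5 RPKM in double-positive, 20.0 and 22.6 RPKM in beta and 121.2 and 118.0 RPKM in delta libraries, and was higher than in beta cells by 1.84 (adjusted p = 1.53e-04). Mlxipl, a carbohydrate-responsive factor, was at 71.9 and 85.8 RPKM in double-positive, 19.8 and 20.2 RPKM in beta and 43.2 and 35.8 RPKM in delta libraries, above both other groups. It was higher than in beta cells by 1.92 (adjusted p = 2.32e-04) and than in delta cells by 0.98 (adjusted p = 0.0068), the second being lost without the female double-positive (0.054) or the female delta library (0.063).

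Among 21 genes listed as other prohormones, 14 passed the filter, and Cck, Ghrl, Adcyap1, Penk, Vip, Trh and Spx did not. In double-positive against beta cells 4 were higher (Sst, Pyy, Ppy and Gcg) and 4 lower, with a median of -0.07. The 4 that were higher are hormones of other islet cells. Sst, somatostatin, was at 12842 and 12933 RPKM in double-positive, 71.1 and 86.8 RPKM in beta and 49770 and 58481 RPKM in delta libraries. Pyy, peptide YY, was at 6024 and 6533 RPKM in double-positive, 280 and 228 RPKM in beta and 19764 and 21259 RPKM in delta libraries. Sst made up 3.36% and 3.30% of the summed RPKM of the double-positive libraries, against 22.4% and 23.8% for insulin. Whether insulin and somatostatin RNA were in the same cells, and what other cells in the gate gave, was not tested. Of the lower genes, Ucn3 was at 107.2 and 156.5 RPKM in double-positive, 362.1 and 431.6 RPKM in beta and 2.43 and 2.42 RPKM in delta libraries (log2 fold change against beta cells -1.60, adjusted p = 9.73e-04, limma). Against delta cells 1 prohormone was higher, Ucn3 at 5.25 (adjusted p = 6.81e-05), and 4 were lower, with a median of -0.17. The count of lower genes against beta cells fell to 1 without either double-positive library. In beta against delta cells the counts of higher and lower genes were 4 and 5 for the processing enzymes, 5 and 3 for granule cargo, 3 and 4 for the regulators and 5 and 6 for the other prohormones. With median-of-ratios scaling they were 6 and 2 for the processing enzymes, 6 and 1 for granule cargo, 6 and 4 for the regulators and 7 and 5 for the other prohormones.

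**Figure D5:**
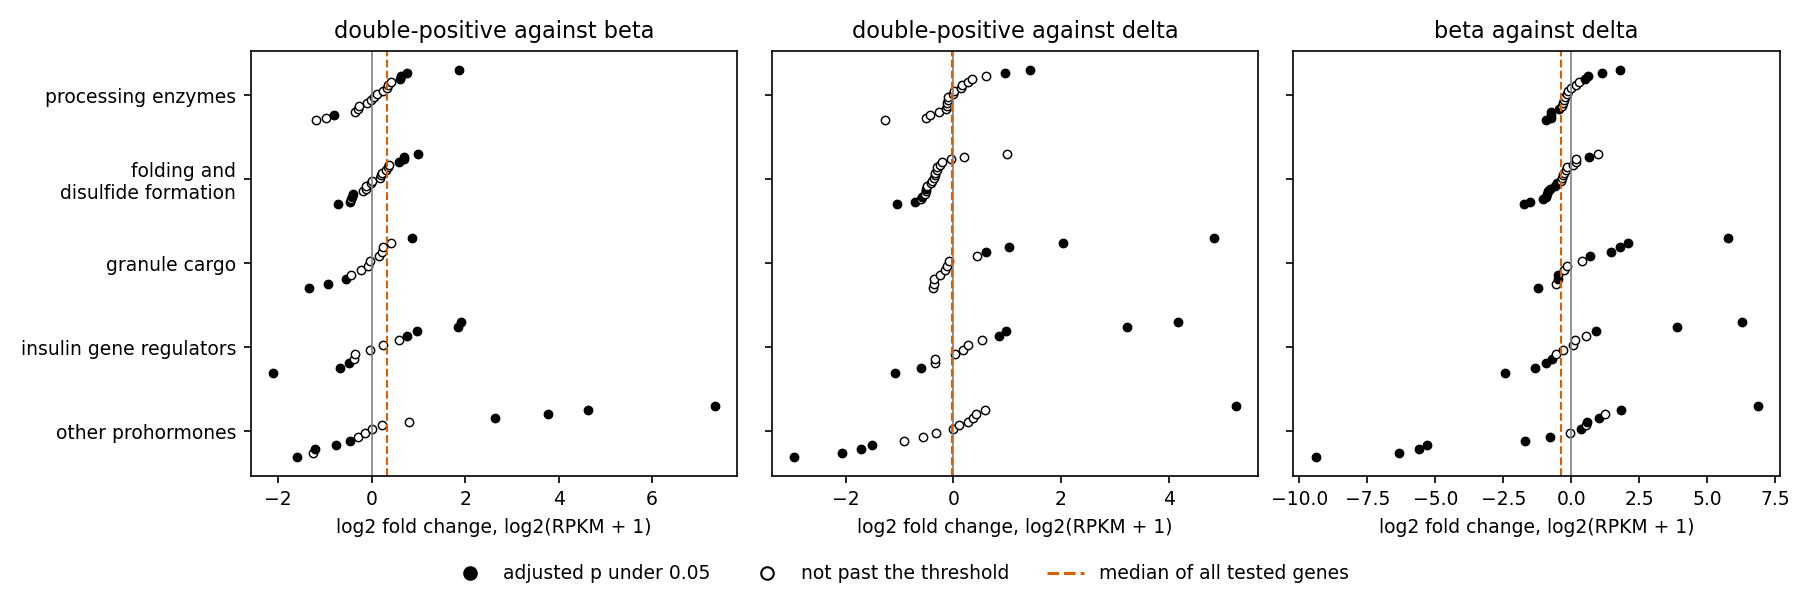
Log2 fold change on the log2(RPKM + 1) scale (x axis) of each tested gene in 5 lists (rows, points spread by rank for legibility) in the 3 comparisons; filled points passed an adjusted p of 0.05 and the dashed line is the median of all genes tested. Sst lies at 7.34 in double-positive against beta cells, and the folding genes lie mostly below 0 in double-positive against delta cells, where 4 of 20 were called.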

How the data were processed

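Per the labels' protocols, RNA was extracted from sorted islet cells and libraries were made with the TruSeq RNA kit v2. The deposited table holds 1 RPKM value per gene and library; per the submitters' processing notes the authors used STAR 2.5, featureCounts and edgeR 3.14.0 on GRCm38.p4, with no settings given. A count model was not applied to these normalized values. Depth was estimated from the steps of low values, using GENCODE M21 exon lengths, and 83.3% to 86.4% of values under 50 reads were whole within 0.01 read. Low values carry large counting error. Rows with symbols turned into dates (27) were dropped.

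Genes reaching 1 RPKM in 2 or more of the 6 libraries were tested on log2(RPKM + 1) with limma 3.58.1 in R 4.3.3, in 1 fit over the 3 groups (limma-trend, 2-sided, Benjamini-Hochberg over 13022 genes, threshold 0.05). Each group had 2 libraries, replicate 1 from male and replicate 2 from female pools. Pairing by pool rests on the series text, which draws all populations from the same islets, although an unexplained token in the sample titles is not the same in each group; deviations from group means correlated at 0.47, 0.36 and 0.24 between groups. That text once gives alpha cells as origin of the double-positive population; the title, labels and Cre driver give delta cells, and these were followed. It also has a sentence on pools of bitransgenic females, whereas the labels give a male and a female library per group, and the labels were followed. Named list genes are those with the largest change, up to 3 in each direction per list and comparison; Pcsk1n, Scg5 and Ero1l, partners or relatives of the 8 genes, and Gcg, Ppy and Hsp90b1, where every gene called is listed or markers are given, were named after their values were seen. The 8 genes and the lists were chosen with earlier results of these data known. Alternatives were another pseudocount (0.1), no filter, a filter at 5 RPKM, median-of-ratios scaling, scaling to an equal sum without 7 islet hormones, the pool as a block, and leaving out each library. Promoters are from RefSeq on GRCm38.p6.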

Additional observations from a re-analysis of the deposited data

Results flagged for a closer look

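Pcsk1, the convertase of the first cuts in proinsulin, moved in opposite directions in the pools when double-positive cells were set against beta cells. The log2 fold change was 0.13 in the male pool and -0.35 in the female pool. Each pool has 1 library per group, and the difference between the pools was not tested.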

How the results depend on the processing

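Over 288 combinations of a gene of the 8, a comparison and an alternative, 254 kept their direction and side of the threshold, 20 lost the call, 8 gained one and 6 turned direction. The turned values are Pcsk1 and Pcsk2 in double-positive against beta cells without the male double-positive library (replicate 1; 0.04 and 0.02) and without the female beta library (replicate 2; 0.28 and 0.10), and, with median-of-ratios scaling, Pam in double-positive against beta cells (-0.13) and Pcsk2 in beta against delta cells (0.16). The filter at 5 RPKM, which tests fewer genes, gave 4405 genes called in double-positive against beta cells and 1063 against delta cells. Median-of-ratios scaling, with factors of 0.788 and 0.875 in the beta libraries, called 6 of the 8 genes in double-positive against beta cells. With no filter 0 of the 8 genes were called in double-positive against beta cells and 3 against delta cells. The log2 fold changes of Ins1, Ins2 and Iapp against beta cells stayed at -1.61, -1.52 and -0.49, while their SE grew to 0.63, 1.54 and 1.66. What raised the SE was not tested. Beside that count of 0, limma gave 0 higher and 0 lower of the 8 at an unadjusted p under 0.05 with no filter, although 6713 genes were called in all.

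Leaving out each library in turn, Pcsk1 ran between -0.50 and 0.28 and Pcsk2 between -0.27 and 0.10 in double-positive against beta cells. The same fits gave 4132 to 7086 genes and 2 to 4 of the 8 in double-positive against beta cells, 522 to 2055 genes and 4 to 5 of the 8 against delta cells, and 5031 to 7823 genes and 6 to 8 of the 8 in beta against delta cells. Against delta cells the count of all genes, 1657 with all libraries, was 759 without the male and 655 without the female double-positive library, and 717 and 522 without the male and female delta library; against beta cells it was 4132 without the male double-positive library, against 6642; in each of these fits 1 group has a lone library, assumed to vary like the others. With the replicate block, 4 of the 8 were called in double-positive against beta cells, Ero1lb being added (adjusted p = 0.016), and no other call of the 8 changed. Levels moved by less than the replicate SD in 19 of 24 cases with hormone-free scaling and in 10 of 24 with median-of-ratios scaling. The 2 libraries per group limit every test.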

Other observations

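Within each group the pools can be set side by side for the 8 genes, as the log2 difference of the female from the male library. Both insulin genes were lower in the female beta library (-0.37 for Ins1 and -0.52 for Ins2), whereas Pcsk1, Pcsk2 and Ero1lb were higher there (0.77, 0.38 and 0.66). In double-positive cells the same differences were 0.23 for Ins1, 0.098 for Ins2, 0.30 for Pcsk1, 0.21 for Pcsk2 and 0.44 for Ero1lb. In delta cells they were 0.34, 0.28, -0.12, 0.17 and 0.068. Each value rests on 1 pool per sex, the difference between the pools was not tested, and the pools also differed in acinar markers.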
